A study of Mus musculus with 12 samples.

Results

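The comparison set the 6 libraries of zeitgeber times ZT2 and ZT14 against the 6 of ZT8 and ZT20, each time weighted equally, in lumbar dorsal root ganglia (DRG) of mice. These are all 12 libraries of the series, and the libraries were assigned by time alone, with no measured value used. The dorsal root ganglia hold the cell bodies of sensory neurons, wrapped by satellite glia. The ZT2, ZT14, ZT8 and ZT20 groups had 3 libraries each, from naive male C57BL6J mice aged 6 to 12 weeks, and by their labels the groups differ only in the time of killing. Ganglia L1 to L6 were frozen, and polyadenylated RNA was sequenced. The sources used here give no light schedule and do not state whether the libraries are separate animals or pools. The p-values therefore measure only how these libraries vary, and part of that may be technical. The library numbers follow the order of the times, so a batch of collection cannot be told apart from time.

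Besides rhythms of about 24 h, driven by the feedback loop of the circadian clock, rhythms of 12 h have been described in mouse liver. The best known of these liver transcripts belong to the unfolded protein response, which the transcription factor XBP1 drives when misfolded proteins build up in the endoplasmic reticulum (ER), and to the heat shock response. A transcript with a 12-h rhythm would alternate at times 6 h apart, as the contrast asks, but 4 times give each 12-h cycle no more than a high and a low point. Phase and amplitude were therefore not estimated. A gene that stood apart at a single time also gives a difference in this contrast, so each result is given with its separate steps, ZT2 against ZT8 and ZT14 against ZT20, which share no library.

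Estimated counts summed to 89.8 to 125 per library in units of 1000000, and log2 levels of any pair of libraries correlated across genes at 0.965 to 0.975. Summed levels of the 18 pan-neuronal genes were 24324 to 25592 CPM (estimated counts per 1000000 of the normalized library size) at ZT2 and ZT14, and 24133 to 25450 CPM at ZT8 and ZT20. Those of the 13 satellite glia genes were 5929 to 7599 CPM at ZT2 and ZT14 and 6272 to 7112 CPM at ZT8 and ZT20, so the defining transcripts of the tissue were present in every library. Skeletal muscle transcripts varied widely within each time, with summed levels of 263 to 786 CPM at ZT2 and ZT14 and 212 to 1418 CPM at ZT8 and ZT20. The muscle list itself had 0 of 18 genes at an unadjusted p under 0.05, beside 7.44% of all tested genes. Its median log2 difference was -0.04.

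No gene of the 25809 tested passed an adjusted p of 0.05 in the 12-h contrast (0.0%; edgeR quasi-likelihood test, Benjamini-Hochberg). The lowest adjusted p was 0.116, and limma called 0 genes as well, with a lowest adjusted p of 0.101. DESeq2 called 78 genes as higher in ZT2 and ZT14 (0.303% of 25769) and 48 as lower (0.186%). At an unadjusted p under 0.05, edgeR gave 1921 genes (7.44%), limma 1973 and DESeq2 2008. The edgeR genes were 945 higher (3.66%) and 976 lower (3.78%), and the median log2 difference of all genes was -0.00. For each gene below, "higher" and "lower" therefore describe values of ZT2 and ZT14 relative to ZT8 and ZT20, with the unadjusted p stated, and not calls. In whole tissue, fewer cells of a type and less RNA per cell cannot be told apart.

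The differences were small. Among 1438 of those genes with a mean of at least 1 CPM, the median absolute log2 difference was 0.16, with a range of 0.07 to 0.54 between the 5th and 95th percentiles. The time means alternated, with ZT2 and ZT14 both above or both below ZT8 and ZT20, for 9450 of all genes (36.6%) and for 1732 of the 1921. All 6 libraries of ZT2 and ZT14 lay above the other 6 for 42 genes (0.163%) and below them for 65 genes (0.252%). The other ways of setting 6 libraries against 6 by time gave fewer genes at an unadjusted p under 0.05 in the fit of all libraries: 1409 for ZT14 and ZT20 against ZT2 and ZT8 (5.46%), and 1286 for ZT8 and ZT14 against ZT20 and ZT2 (4.98%). The order was not kept in every fit: ZT14 and ZT20 against ZT2 and ZT8 gave 2482 genes without ZT8 replicate 3 and 2456 with the mean log2 level of red cell genes (the red cell score) as a covariate, both above the count of the 12-h contrast in the same fit. With all libraries and no covariate, the counts of these other contrasts past the adjusted threshold were 0 (0.0%) and 13 (0.0504%).

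The genes with the lowest p in the higher direction included 4 whose libraries of ZT2 and ZT14 were all above the rest, Car13, Adamts1, Mfap3 and Thbs3. Car13 (chr3:14641727-14663002, GRCm38), a cytosolic carbonic anhydrase, had 12.2, 12.6 and 12.2 CPM at ZT2 and 13.5, 13.2 and 13.4 CPM at ZT14, against 10.4, 9.65 and 10.9 CPM at ZT8 and 11.0, 9.69 and 10.5 CPM at ZT20. The lowest library of ZT2 and ZT14 had 12.2 CPM and the highest of ZT8 and ZT20 had 11.0 CPM. The log2 difference was 0.31 ± 0.04 (SE), with an unadjusted p of 1.6e-05, an adjusted p of 0.136 in edgeR and 8.64e-07 in DESeq2. Both steps were alike in size, at 0.26 ± 0.06 for ZT2 against ZT8 and 0.36 ± 0.06 for ZT14 against ZT20. Adamts1 (chr16:85793827-85803113), a secreted protease that cleaves proteoglycans of the matrix, had 6.61, 6.77 and 6.09 CPM at ZT2 and 7.41, 8.76 and 8.77 CPM at ZT14, against 5.50, 5.62 and 5.68 CPM at ZT8 and 4.73, 5.77 and 5.18 CPM at ZT20. Its groups did not overlap either, and the step was larger at ZT14 against ZT20 (log2 0.67 ± 0.09) than at ZT2 against ZT8 (0.21 ± 0.09), an unadjusted p of 0.00452 and an adjusted p of 0.729 for the difference between the steps.

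Mfap3, a microfibril-associated protein, had 16.2, 15.9 and 17.7 CPM at ZT2 and 16.0, 17.5 and 18.1 CPM at ZT14, against 13.3, 13.6 and 13.2 CPM at ZT8 and 14.999, 14.9 and 15.4 CPM at ZT20. Thbs3, a thrombospondin of the matrix, averaged 8.19 ± 0.22 CPM at ZT2 and 7.48 ± 0.29 CPM at ZT14, against 6.52 ± 0.27 CPM at ZT8 and 6.74 ± 0.36 CPM at ZT20 (SD, n = 3 each). Neither gene's groups overlapped, with log2 differences of 0.25 ± 0.04 and 0.24 ± 0.05 (SE). Igfbp5, which binds insulin-like growth factors, averaged 43.8 ± 7.2 CPM at ZT2 and 60.4 ± 2.8 CPM at ZT14, against 36.5 ± 2.8 CPM at ZT8 and 36.2 ± 5.1 CPM at ZT20. Here the libraries of ZT14 stood above the rest, and those of ZT2 overlapped with ZT8 and ZT20. Rtl8a, a gene derived from a retrotransposon, showed the opposite kind of profile, since ZT8 was low at 200.3 CPM while ZT2, ZT14 and ZT20 averaged 254, 251 and 244 CPM.

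Among genes lower in ZT2 and ZT14 were a pair of subunits of TFIID, the factor that places RNA polymerase II at promoters. They were named for their low p, and the subunits of TFIID were not examined as a set. Taf9 (chr13:100651579-100656060) had 28.4, 33.0 and 36.0 CPM at ZT2 and 33.4, 34.2 and 28.8 CPM at ZT14, against 37.8, 41.0 and 41.0 CPM at ZT8 and 40.1, 44.5 and 39.0 CPM at ZT20. Taf8 (chr17:47483364-47502292) had 14.2, 13.9 and 14.8 CPM at ZT2 and 14.8, 15.2 and 15.3 CPM at ZT14, against 15.4, 16.6 and 15.9 CPM at ZT8 and 17.2, 17.4 and 16.7 CPM at ZT20. In both genes all 6 libraries of ZT2 and ZT14 were below the other 6. The log2 differences were -0.33 ± 0.06 and -0.17 ± 0.03 (SE), with an adjusted p of 0.295 for each in edgeR.

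Ndufc1, a subunit of respiratory complex I, averaged 45.6 ± 0.51 CPM at ZT2 and 43.5 ± 1.4 CPM at ZT14, against 50.7 ± 1.8 CPM at ZT8 and 48.8 ± 2.0 CPM at ZT20. The steps were -0.15 ± 0.04 and -0.16 ± 0.04 log2. Zfp663, a zinc finger gene, averaged 1.55 ± 0.18 CPM at ZT2 and 1.79 ± 0.12 CPM at ZT14, against 2.68 ± 0.31 CPM at ZT8 and 2.33 ± 0.23 CPM at ZT20, a log2 difference of -0.59 ± 0.09 with an adjusted p of 0.187. Tmprss11c, a membrane serine protease, and Spink2, a serine protease inhibitor, were also lower in every library of ZT2 and ZT14, by log2 -0.38 ± 0.07 and -0.41 ± 0.08. The DNA repair genes Swsap1 and Xpa, which serve homologous recombination and nucleotide excision repair, had log2 differences of -0.15 ± 0.03 and -0.19 ± 0.04. Pcdha12, a neuronal cell adhesion gene whose last exons are shared with the other alpha protocadherins, ranged over 5.22 to 7.12 CPM at ZT2 and ZT14 and over 6.71 to 13.4 CPM at ZT8 and ZT20.

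Several of the lowest p-values came from a single time. Khk, the fructose-metabolizing ketohexokinase (chr5:30921431-30931248), had 20.2, 20.2 and 23.5 CPM at ZT2 and 36.0, 30.3 and 34.2 CPM at ZT14, against 34.0, 33.6 and 37.2 CPM at ZT8 and 37.8, 34.7 and 36.1 CPM at ZT20. Only the ZT2 libraries stood apart, and the steps were -0.71 ± 0.08 and -0.11 ± 0.08 log2. Emilin1, a glycoprotein of elastic fibres that ends 153 bases before Khk on the same strand, showed the reverse: 6.10, 7.00 and 5.79 CPM at ZT2 and 3.81, 3.71 and 2.91 CPM at ZT14, against 2.30, 2.06 and 3.23 CPM at ZT8 and 3.03, 2.49 and 2.66 CPM at ZT20. Its steps were 1.31 ± 0.17 and 0.35 ± 0.17 log2. Reads that run past the end of Emilin1 may be assigned to either gene, and the division was not tested.

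Of the 40 gene lists examined, the immediate early genes had the most members higher in ZT2 and ZT14 by number. By share of measured members, the neutrophil and marrow list described below was above it, with 10 of 14. The red cell list, with 8 of 14, was close to it. Immediate early genes are switched on within minutes of neuronal firing, growth factors or stress. Their products are transcription factors such as FOS and EGR1 or brakes on kinase signalling such as the DUSP phosphatases. Of 26 measured, 15 were higher at an unadjusted p under 0.05 and 0 were lower, beside 3.66% and 3.78% of all genes. The median log2 difference was 0.21, 24 of the 26 were above 0, and 22 were above 0 in both steps. DESeq2 called 5 of them past the adjusted threshold, beside 0.303% higher and 0.186% lower of its 25769 genes, and edgeR called 0. The mean log2 level of the list was 3.53, 3.54 and 3.61 at ZT2 and 3.54, 3.55 and 3.62 at ZT14, against 3.28, 3.30 and 3.41 at ZT8 and 3.32, 3.34 and 3.35 at ZT20, each set in ascending order. The groups did not overlap on this scale. The list's median was 0.17 for ZT2 against ZT8 and 0.23 for ZT14 against ZT20.

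Fos (chr12:85473890-85477273), which encodes a subunit of the AP-1 transcription factor, had 7.09, 8.75 and 7.06 CPM at ZT2 and 7.55, 9.73 and 5.84 CPM at ZT14, against 4.75, 4.61 and 5.87 CPM at ZT8 and 5.28, 4.61 and 4.59 CPM at ZT20. A single pair of libraries overlapped, the lowest of ZT14 and the highest of ZT8. The log2 difference was 0.63 ± 0.12 (SE; 95% interval 0.37 to 0.90), with an unadjusted p of 0.000258 and adjusted p of 0.295 in edgeR and 0.00159 in DESeq2. The steps of 0.59 ± 0.17 and 0.67 ± 0.17 log2 were close to each other. Egr3, a zinc finger factor of the same response (chr14:70077203-70082614), had 10.5, 7.45 and 9.64 CPM at ZT2 and 8.49, 8.04 and 8.55 CPM at ZT14, against 5.35, 4.43 and 5.65 CPM at ZT8 and 7.89, 5.50 and 8.06 CPM at ZT20. ZT8 lay lowest for Egr3, and ZT20 overlapped with ZT2 and ZT14. Its log2 difference was 0.53 ± 0.11, with an adjusted p of 0.319 in edgeR.

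Dusp1, a phosphatase that inactivates MAP kinases, had 33.4, 34.9 and 33.2 CPM at ZT2 and 37.6, 40.6 and 36.1 CPM at ZT14, against 29.8, 31.6 and 36.6 CPM at ZT8 and 29.3, 27.4 and 25.6 CPM at ZT20. ZT2 and ZT8 overlapped (step 0.05 ± 0.08 log2), and the difference came from ZT14 and ZT20 (step 0.47 ± 0.08). Dusp6, which acts on ERK, averaged 21.7 ± 2.6 CPM at ZT2 and 24.04 ± 0.79 CPM at ZT14, against 19.6 ± 0.53 CPM at ZT8 and 18.8 ± 0.96 CPM at ZT20. The other members described from here on in this list were chosen after their values were seen. Egr1 had 10.8, 12.8 and 12.2 CPM at ZT2 and 11.9, 12.4 and 7.85 CPM at ZT14, against 5.97, 6.30 and 8.81 CPM at ZT8 and 9.91, 6.03 and 8.36 CPM at ZT20. A library of ZT14 lay among those of ZT8 and ZT20, and the log2 difference was 0.58 ± 0.15 (unadjusted p = 0.00261). Klf4, a zinc finger factor, averaged 5.90 ± 0.51 CPM at ZT2 and 6.73 ± 0.25 CPM at ZT14, against 5.05 ± 0.85 CPM at ZT8 and 5.24 ± 0.32 CPM at ZT20. Jun, the main AP-1 partner of FOS, averaged 104 ± 6.5 CPM at ZT2 and 111 ± 4.5 CPM at ZT14, against 95.2 ± 7.2 CPM at ZT8 and 95.3 ± 6.0 CPM at ZT20.

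**Figure D1:**
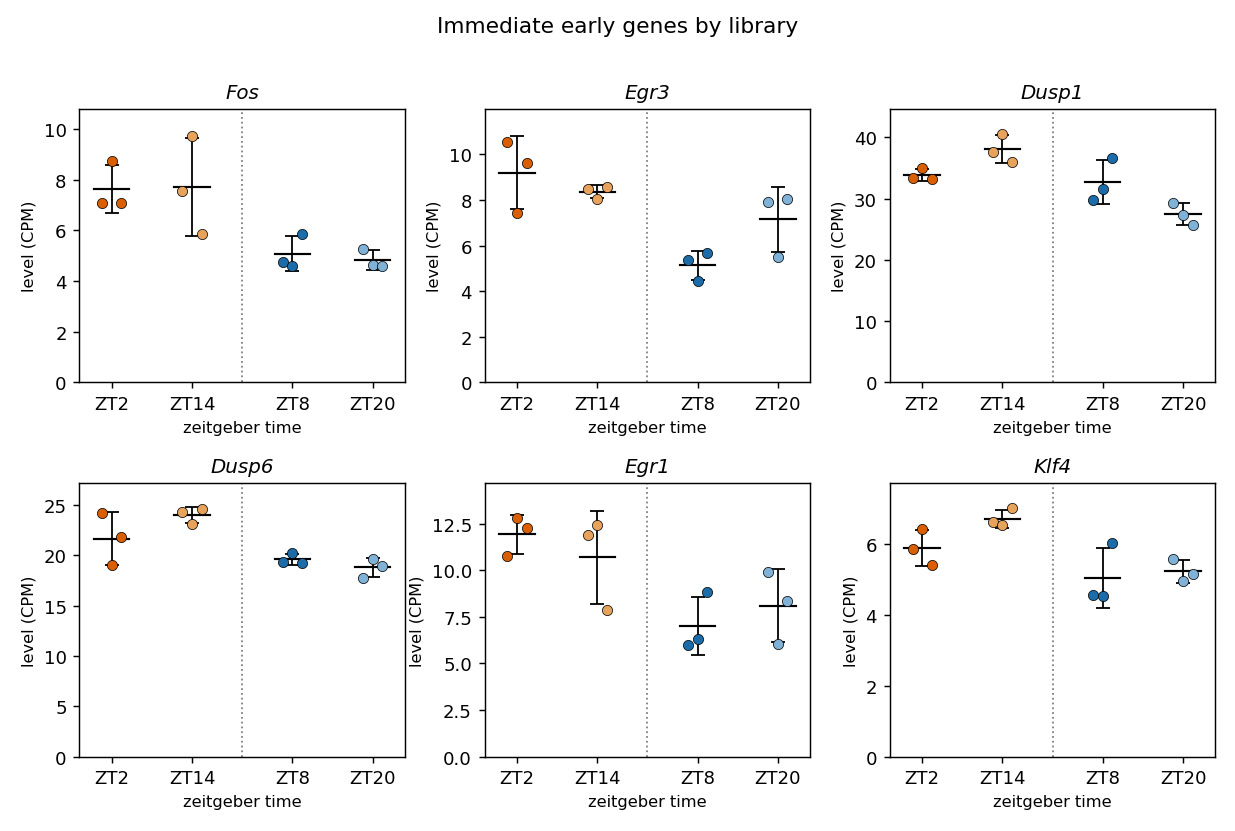
Levels in CPM (y axis, from 0) of 6 immediate early genes at ZT2 and ZT14 (left of the dotted line) and at ZT8 and ZT20 (right of it). Points are libraries, and lines with bars are the mean and SD of 3 libraries. The ZT2 and ZT14 libraries of Fos lay at 5.84 to 9.73 CPM and those of ZT8 and ZT20 at 4.59 to 5.87 CPM.

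Other members at an unadjusted p under 0.05 were Fosl2 (log2 0.42 ± 0.11), Nr4a3 (0.47 ± 0.19, at levels under 1 CPM), Junb (0.22 ± 0.06), Ier2 (0.24 ± 0.09), Btg2 (0.23 ± 0.10), Arc (0.20 ± 0.08), Ier3 (0.13 ± 0.05) and Dusp5 (0.09 ± 0.04). Jund (0.03), Klf6 (0.03), Nr4a1 (0.06), and Nr4a2 (-0.00) were close to 0. Within the Egr family the differences were 0.58 for Egr1, 0.53 for Egr3, 0.15 for Egr2 and -0.01 for Egr4. Leaving out any library left 11 to 15 members at that p. With the red cell score described below as a covariate, chosen after seeing the data, 3 members remained at that p, and with the marrow score 8 did. Fos had log2 differences of 0.20 and 0.49 in these fits. Over all genes, 524 were higher at that p with the marrow score, beside 945 with no covariate.

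Transcription of many immediate early genes is driven through the cyclic AMP response element, whose full palindrome is TGACGTCA. In promoters from RefSeq (build GRCm38.p6, 250 bases before to 50 bases after a gene's start), found for 22 of the 26 members, the palindrome stood in 2, Dusp1 and Btg2. It stood in 1.79% of all 32851 promoters. The letters read the same on both strands. Both promoters are shown because they hold the element, in capitals, in genes described above. That of Dusp1 is chr17:26508423-26508722 (minus strand) with the element at position -143 from the gene's start, and that of Btg2 is chr1:134079106-134079405 (minus strand) with the element at -166.
Dusp1: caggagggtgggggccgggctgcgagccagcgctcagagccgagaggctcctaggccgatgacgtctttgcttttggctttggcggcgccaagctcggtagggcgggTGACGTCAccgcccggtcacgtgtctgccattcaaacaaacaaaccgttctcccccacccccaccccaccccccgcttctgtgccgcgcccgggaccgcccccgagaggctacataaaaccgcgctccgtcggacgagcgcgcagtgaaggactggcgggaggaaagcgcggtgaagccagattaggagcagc
Btg2: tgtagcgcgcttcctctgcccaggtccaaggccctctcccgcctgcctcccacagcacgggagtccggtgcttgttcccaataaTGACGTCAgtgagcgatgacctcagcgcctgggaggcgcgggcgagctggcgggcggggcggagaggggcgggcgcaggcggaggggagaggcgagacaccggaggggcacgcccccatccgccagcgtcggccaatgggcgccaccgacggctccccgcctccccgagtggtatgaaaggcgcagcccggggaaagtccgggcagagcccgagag

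Heat shock chaperones, which refold proteins in the cytosol and mitochondria, had log2 differences above 0 for 18 of 20 measured members. Of the 20, 8 were higher at an unadjusted p under 0.05 and 1 was lower, beside 3.66% and 3.78% of all genes. The median log2 difference was 0.09. Both steps were above 0 for 15 members. With the marrow score described below as a covariate, chosen after seeing the data, 4 members were higher at that p. Over all genes, 524 were higher at that p in that fit, beside 945 without the score. Hspa1a (chr17:34969190-34972156), the inducible HSP70, had 15.8, 16.7 and 16.0 CPM at ZT2 and 14.1, 13.2 and 17.3 CPM at ZT14, against 11.7, 13.4 and 12.5 CPM at ZT8 and 11.7, 12.8 and 12.9 CPM at ZT20. A ZT14 library at 13.2 CPM and a ZT8 library at 13.4 CPM kept the groups from separating. The log2 difference was 0.31 ± 0.06 (95% interval 0.17 to 0.46), with an adjusted p of 0.301 in edgeR and 0.00834 in DESeq2. Hspa1b, a near-identical copy on the same chromosome with which reads may be shared, averaged 28.9 ± 0.86 CPM at ZT2 and 26.1 ± 3.1 CPM at ZT14, against 22.4 ± 2.5 CPM at ZT8 and 22.2 ± 1.8 CPM at ZT20.

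Dnajb1, an HSP40 that delivers clients to HSP70, had 72.0, 65.4 and 72.2 CPM at ZT2 and 63.4, 61.2 and 68.9 CPM at ZT14, against 53.0, 58.1 and 57.5 CPM at ZT8 and 58.0, 64.9 and 60.2 CPM at ZT20. ZT2 lay above ZT8 in all libraries, with a step of 0.31 ± 0.06 log2, while ZT14 and ZT20 overlapped, with a step of 0.08 ± 0.06. Stip1, which links HSP70 to HSP90, had a log2 difference of 0.11 ± 0.03 and steps of 0.11 and 0.10. Hsp90aa1 (0.11 ± 0.04), the mitochondrial chaperonin pair Hspd1 (0.09 ± 0.03) and Hspe1 (0.09 ± 0.03), and Chordc1, an HSP90 co-chaperone (0.14 ± 0.06), were the remaining members higher at that p, the last 4 named after their values were seen. The member lower at that p was the small heat shock protein Hspb8 (-0.07 ± 0.03). Hspa8, the constitutive HSP70, had -0.02 and Hsp90ab1 0.01.

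The factor HSF1 binds repeats of a short inverted motif, here searched on both strands as TTCNNGAANNTTC. Among 16 members with a RefSeq promoter it stood in 4 (Hsph1, Hspd1, Hspe1 and Chordc1), beside 0.603% of all promoters. The promoter of Chordc1, chr9:18292017-18292316 (plus strand), is shown because it holds 3 overlapping matches, in capitals. Chordc1 had 37.4, 35.3 and 35.1 CPM at ZT2 and 27.1, 33.6 and 34.3 CPM at ZT14, against 32.1, 31.5 and 29.2 CPM at ZT8 and 28.3, 32.1 and 31.0 CPM at ZT20. The motif is also in Hsph1, whose log2 difference of 0.13 ± 0.08 had an unadjusted p of 0.15.
Chordc1: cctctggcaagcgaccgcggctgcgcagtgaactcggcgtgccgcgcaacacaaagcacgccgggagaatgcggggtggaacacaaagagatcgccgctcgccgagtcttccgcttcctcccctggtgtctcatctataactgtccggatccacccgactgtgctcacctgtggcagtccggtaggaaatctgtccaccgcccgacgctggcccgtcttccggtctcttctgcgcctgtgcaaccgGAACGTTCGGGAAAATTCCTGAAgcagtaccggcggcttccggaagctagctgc

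The ER chaperones are central to the 12-h rhythm described in liver. Of 18 measured, 4 were higher at an unadjusted p under 0.05 and 0 were lower, beside 3.66% and 3.78% of all genes. The median log2 difference was 0.03. Both steps were above 0 for 8 of the 18. With the marrow or the red cell score as a covariate, both chosen after seeing the data, 2 members were higher at that p. With the skeletal muscle score, without the most muscle-rich library of each time, or without ZT14 replicate 1, 7 were. Of all 25809 genes, 1899 were higher at that p with the muscle score and 524 with the marrow score. With all libraries and no covariate, 945 were. Hspa5 (chr2:34771970-34777547), the ER's HSP70, known as BiP, had 191, 181 and 192 CPM at ZT2 and 165, 158 and 181 CPM at ZT14, against 143, 145 and 169 CPM at ZT8 and 155, 148 and 162 CPM at ZT20. ZT2 was highest, and the ZT14 libraries overlapped with those of ZT8 and ZT20. The log2 difference was 0.21 ± 0.05 (adjusted p = 0.355 in edgeR and 0.0124 in DESeq2), made of a step of 0.30 ± 0.07 for ZT2 against ZT8 and 0.12 ± 0.07 for ZT14 against ZT20.

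Creld2, an ER stress protein, had 18.2, 18.0 and 20.1 CPM at ZT2 and 15.2, 14.9 and 15.6 CPM at ZT14, against 12.2, 12.4 and 17.8 CPM at ZT8 and 14.7, 12.8 and 14.2 CPM at ZT20. A single ZT8 library, replicate 3, reached into the range of ZT2 and ZT14. The protein disulfide isomerases Pdia4 and Pdia6 had steps of 0.24 ± 0.06 and 0.22 ± 0.06 log2 for ZT2 against ZT8, and of 0.01 ± 0.06 and -0.02 ± 0.06 for ZT14 against ZT20. Their 12-h differences of 0.13 and 0.10 thus came from ZT2 and ZT8. The test of the difference between steps gave unadjusted p of 0.0189 for Pdia4 and 0.0131 for Pdia6, and adjusted p of 0.900 and 0.878.

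The list of the unfolded protein response held 18 transducers and degradation factors. Of these, 2 were higher at an unadjusted p under 0.05 and 1 was lower, beside 3.66% and 3.78% of all genes. Xbp1 (chr11:5520659-5525893) had 119, 117 and 124 CPM at ZT2 and 113, 106 and 117 CPM at ZT14, against 91.2, 90.9 and 111 CPM at ZT8 and 111, 99.3 and 107 CPM at ZT20. The difference of 0.19 ± 0.05 log2 (unadjusted p = 0.00435, adjusted p = 0.462 in edgeR) was made of steps of 0.30 ± 0.07 for ZT2 against ZT8 and 0.08 ± 0.07 for ZT14 against ZT20, and ZT8 was lowest. Edem1, which draws misfolded glycoproteins into degradation, had a difference of 0.12 ± 0.05. Ppp1r15a, which restores translation after stress, was lower by log2 -0.16 ± 0.04. Atf4, the factor of another branch of the response, averaged 192 ± 3.1 CPM at ZT2 and 193 ± 5.2 CPM at ZT14, against 192 ± 8.0 CPM at ZT8 and 205 ± 4.6 CPM at ZT20, a difference of -0.04 ± 0.03 with a 95% interval of -0.10 to 0.01.

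The ER stress response element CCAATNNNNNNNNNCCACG, read on both strands, stood in 8 of the 15 ER chaperone promoters found and in 0.119% of all promoters. The holders were Hspa5, Hsp90b1, Calr, Canx, Pdia6, Dnajc3, Creld2 and Ero1b, so 3 of the 4 members higher at that p carried it, as did 5 that were not. The promoters of Hspa5, chr2:34771840-34772139, and Creld2, chr15:88819396-88819695 (both plus strand), are shown with the match in capitals, at -65 from the start in Hspa5 and at -126 in Creld2, where it lies on the opposite strand. A match of letters is a description and was not measured as binding.
Hspa5: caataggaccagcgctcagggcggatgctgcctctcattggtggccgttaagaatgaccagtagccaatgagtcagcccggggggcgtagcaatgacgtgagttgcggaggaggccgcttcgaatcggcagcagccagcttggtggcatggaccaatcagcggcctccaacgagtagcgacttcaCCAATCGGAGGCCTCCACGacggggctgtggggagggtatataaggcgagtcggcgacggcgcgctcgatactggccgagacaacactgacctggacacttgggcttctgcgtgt
Creld2: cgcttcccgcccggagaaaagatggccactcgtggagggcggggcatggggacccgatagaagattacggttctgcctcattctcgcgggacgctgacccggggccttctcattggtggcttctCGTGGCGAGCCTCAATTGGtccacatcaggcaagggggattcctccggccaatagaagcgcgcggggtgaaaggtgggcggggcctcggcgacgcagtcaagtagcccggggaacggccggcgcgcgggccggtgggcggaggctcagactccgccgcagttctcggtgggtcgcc

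Cold-inducible RNA-binding proteins, which fall with warmth, lay on the other side of 0. Of 6 measured, 0 were higher and 2 were lower at an unadjusted p under 0.05, beside 3.66% and 3.78% of all genes. The median log2 difference was -0.09, with 1 of 6 above 0. Cirbp (chr10:80165985-80172786) had 31.0, 38.7 and 34.1 CPM at ZT2 and 35.01, 30.2 and 30.5 CPM at ZT14, against 42.2, 37.1 and 41.8 CPM at ZT8 and 42.3, 34.7 and 40.0 CPM at ZT20. The groups overlapped, and the steps were -0.22 ± 0.10 and -0.29 ± 0.10 log2. Srsf5, a splicing factor also induced by cold, had a difference of -0.15 ± 0.04 (adjusted p = 0.400 in edgeR and 0.0276 in DESeq2). Rbm3, the other classic member, had -0.19 ± 0.09 with a 95% interval of -0.40 to 0.01. Body temperature was not among the data.

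**Figure D2:**
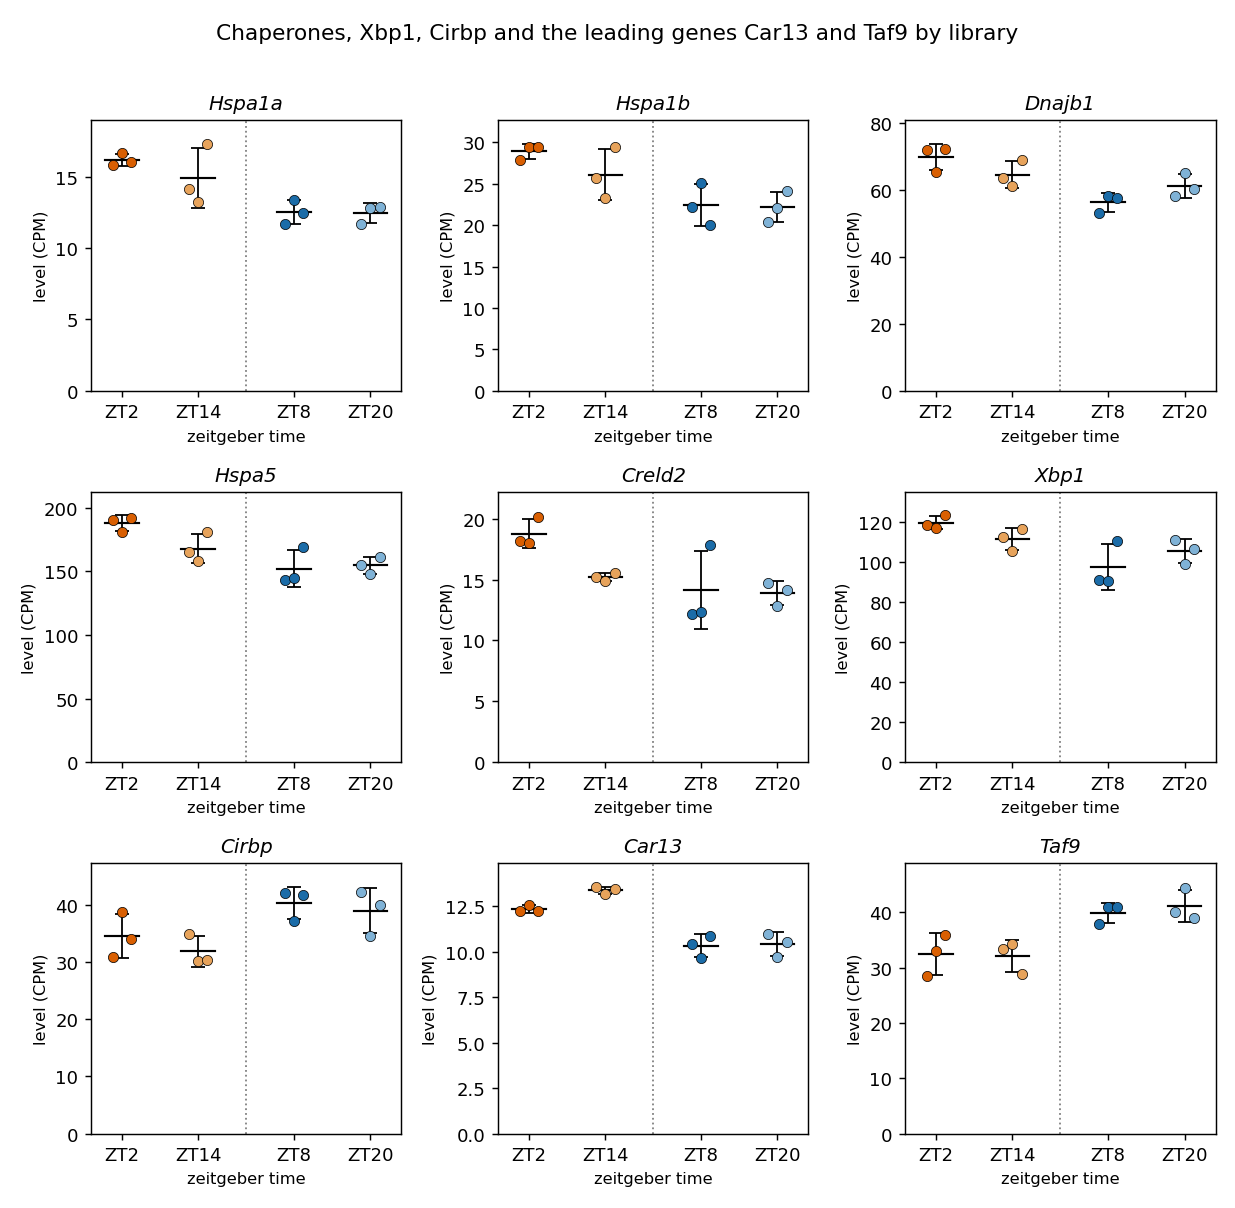
Levels in CPM (y axis, from 0) at ZT2 and ZT14 (left of the dotted line) and at ZT8 and ZT20 (right of it), with points for libraries and the mean and SD of 3 libraries. Hspa1a and Hspa1b were higher in both steps, Dnajb1, Hspa5, Creld2 and Xbp1 mostly at ZT2, and the groups did not overlap for Car13 and Taf9.

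Transcripts of red cells had larger differences than the lists above, mainly through low levels at ZT20. Of 14 measured genes, 8 were higher in ZT2 and ZT14 at an unadjusted p under 0.05 and 0 were lower. These counts stand beside 3.66% and 3.78% of all genes, and the list's median log2 difference was 0.68. Summed over the list, levels were 1758 to 4160 CPM at ZT2 and ZT14 and 873 to 2497 CPM at ZT8 and ZT20. Alas2 (chrX:150547375-150570638), which starts haem synthesis in red cell precursors, had 12.6, 10.5 and 5.90 CPM at ZT2 and 12.9, 14.2 and 13.4 CPM at ZT14, against 7.56, 7.55 and 7.20 CPM at ZT8 and 3.48, 2.41 and 2.40 CPM at ZT20. ZT14 was highest and ZT20 lowest with no overlap, while the third ZT2 library lay below those of ZT8. This gene had the lowest p of all, with a log2 difference of 1.33 ± 0.16, an adjusted p of 0.116 in edgeR and 4.16e-11 in DESeq2.

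The steps of Alas2 were 0.38 ± 0.22 log2 for ZT2 against ZT8 and 2.29 ± 0.24 for ZT14 against ZT20. Alpha globin Hba-a1 had 1351, 986 and 625 CPM at ZT2 and 1300.4, 1324 and 1233 CPM at ZT14, against 804, 757 and 841 CPM at ZT8 and 432, 329 and 297 CPM at ZT20. Its steps were 0.30 ± 0.23 and 1.87 ± 0.24 log2, a difference between steps with an adjusted p of 0.368. Hba-a2, Hbb-bs and Hbb-bt had log2 differences of 1.12, 1.22 and 1.26, but members of a globin pair are near-identical copies and do not count as separate evidence. Fech and Tfrc, used by all cells, had 0.07 and 0.11.

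Granule genes of neutrophils, made in bone marrow, were also lowest at ZT20. Of 14 measured, 10 were higher at an unadjusted p under 0.05 and 0 were lower, beside 3.66% and 3.78% of all genes. The median log2 difference was 0.78, with a median step of 0.26 for ZT2 against ZT8 and of 1.29 for ZT14 against ZT20. In a fit of 2 groups of 6 libraries, 5 members were higher at that p. S100a8, a calcium-binding alarmin, had 29.5, 21.1 and 13.8 CPM at ZT2 and 13.1, 20.9 and 21.2 CPM at ZT14, against 13.5, 17.2 and 16.9 CPM at ZT8 and 8.49, 5.87 and 6.81 CPM at ZT20. ZT20 was below all other libraries, and ZT2, ZT14 and ZT8 overlapped. Ngp, a granule protein, averaged 21.1 ± 8.8 CPM at ZT2 and 19.7 ± 1.9 CPM at ZT14, against 15.4 ± 3.3 CPM at ZT8 and 6.83 ± 2.42 CPM at ZT20, with steps of 0.45 ± 0.31 and 1.53 ± 0.32 log2. Ltf (lactoferrin) and Mmp9 (gelatinase) had steps of 0.37 and 0.20 for ZT2 against ZT8 and of 1.82 and 1.30 for ZT14 against ZT20.

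**Figure D3:**
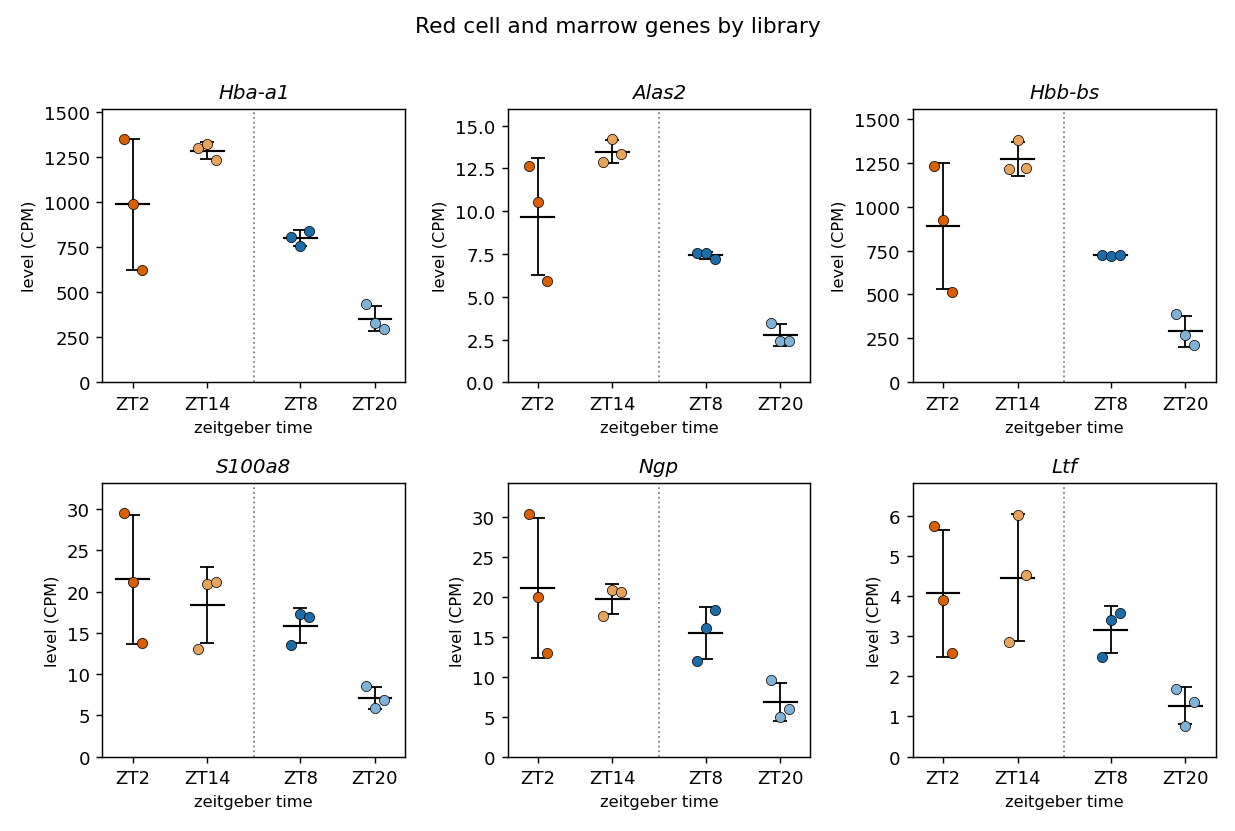
Levels in CPM (y axis, from 0) of 3 red cell genes (top) and 3 marrow genes (bottom) at ZT2 and ZT14 (left of the dotted line) and ZT8 and ZT20 (right of it), with points for libraries and the mean and SD of 3 libraries. ZT20 was low in every panel, while ZT2 and ZT8 overlapped in every panel.

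The mean log2 level of the red cell list was 3.06 to 3.64 at ZT2, 3.47 to 3.63 at ZT14, 3.02 to 3.39 at ZT8 and 2.48 to 2.63 at ZT20, and the marrow list's was 1.10 to 2.13, 1.31 to 2.02, 1.33 to 1.68 and 0.24 to 0.73. ZT20 was lowest in both lists, while ZT2 overlapped with ZT8 in both and ZT14 overlapped with ZT8 in the marrow list. All 14 measured genes of each list were above 0 in every library. Without ZT2 replicate 3, the lowest of the ZT2 libraries in both lists, 9 genes passed the adjusted threshold in edgeR: Alas2 (adjusted p = 0.000808), Hba-a1, Hba-a2, Hbb-bs, Hbb-bt, Khk, Ganab, Ints5 and Slc4a11. Ganab and Ints5 are neighbours 182 bases apart on chromosome 19, with log2 differences of 0.43 ± 0.10 and -0.21 ± 0.07. Without ZT8 replicate 3, 3 genes passed, among them Emilin1 and the predicted gene Gm5905, whose ZT8 libraries had 24.9, 25.8 and 10.7 CPM. Because both scores were themselves lowest at ZT20, the covariate fits above cannot tell the part of these cells from that of time. The part of blood and marrow cells in the immediate early gene result was not tested otherwise.

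Genes of cholesterol and fatty acid synthesis were higher for 6 of 25 members and lower for 1 at an unadjusted p under 0.05. The closing sections call the members of this list sterol members for short. All genes had 3.66% higher and 3.78% lower at that p. The list's median log2 difference was 0.04, with 21 of 25 above 0. Idi1, an isoprenoid isomerase, averaged 121 ± 4.2 CPM at ZT2 and 124.6 ± 2.8 CPM at ZT14, against 115 ± 4.3 CPM at ZT8 and 113 ± 8.9 CPM at ZT20. Sc5d, a sterol desaturase, and Elovl6, a fatty acid elongase, had log2 differences of 0.09 ± 0.03 and 0.12 ± 0.04. Cyp51 had 48.9, 49.6 and 87.1 CPM at ZT2 and 93.2, 51.0 and 89.6 CPM at ZT14, against 48.6, 47.9 and 55.7 CPM at ZT8 and 52.8, 53.6 and 49.5 CPM at ZT20, so 3 of the 6 libraries carried its difference of 0.44 ± 0.18. Lss, which closes the sterol rings in the same pathway, was lower, with a difference of -0.24 ± 0.06 and steps of -0.29 ± 0.09 and -0.19 ± 0.09. Without the most muscle-rich library of each time, or with the marrow score as a covariate, 2 members of the list were higher at that p. There were also 2 without ZT20 replicate 1, and 3 without ZT14 replicate 1, ZT14 replicate 2, ZT2 replicate 3 or ZT8 replicate 2. Over all genes, 524 were higher at that p with the marrow score, beside 945 with all libraries and no covariate.

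The mitochondrially encoded mRNAs had 4 of 13 members lower and 1 higher at an unadjusted p under 0.05. All genes had 3.78% lower and 3.66% higher at that p, and the list's median log2 difference was -0.04. The member that was higher, mt-Nd4, had 1141, 974 and 943 CPM at ZT2 and 1095, 881 and 1014 CPM at ZT14, against 563, 764 and 864 CPM at ZT8 and 830, 599 and 849 CPM at ZT20, a difference of 0.44 ± 0.12. Its neighbour mt-Nd4l, which overlaps it by 7 bases, averaged 7944 ± 54 CPM at ZT2 and 8038 ± 247 CPM at ZT14, against 8823 ± 481 CPM at ZT8 and 8843 ± 597 CPM at ZT20, a difference of -0.14 ± 0.04. The groups did not overlap for either gene. Both lie on 1 transcript with shared reads, so the split between them is uncertain. The nuclear-encoded respiratory chain had 1 of 25 members at an unadjusted p under 0.05 and a median of -0.00, and the mitochondrial ribosomal proteins had 0 of 23.

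Splicing factors had 3 of 26 members higher and 3 lower at an unadjusted p under 0.05, beside 3.66% and 3.78% of all genes. The serine- and arginine-rich factor Srsf6 averaged 54.7 ± 1.3 CPM at ZT2 and 54.5 ± 1.8 CPM at ZT14, against 58.1 ± 0.25 CPM at ZT8 and 57.3 ± 0.86 CPM at ZT20, and all 6 libraries of ZT2 and ZT14 were below the others. Hnrnpd, which binds AU-rich RNA, had a log2 difference of -0.18 ± 0.05. Srsf3, by contrast in sign, had 0.09 ± 0.03. Cytoplasmic ribosomal proteins (0 of 28) and proteasome subunits (1 of 27, lower) had medians of -0.01 each.

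The 12 clock repressors and direct outputs had 4 members higher at an unadjusted p under 0.05 and 10 above 0, beside 3.66% of all genes higher at that p, but none had alternating means, and the median steps were -0.40 log2 for ZT2 against ZT8 and 0.59 for ZT14 against ZT20. Per2, a repressor of the clock, had 4.66, 4.09 and 4.74 CPM at ZT2 and 7.56, 8.25 and 9.10 CPM at ZT14, against 5.34, 5.59 and 5.47 CPM at ZT8 and 3.33, 4.39 and 3.68 CPM at ZT20. Only ZT14 was high, and the steps of -0.28 and 1.13 log2 differed with an adjusted p of 0.00494 in edgeR. Its difference in the 12-h contrast was 0.42 on the log2 scale, with an adjusted p of 0.269 in edgeR and 0.00159 in DESeq2. The other clock list, 7 measured activators and genes in phase with them, had 1 member higher and 0 lower at that p, and 3 with alternating means. Nfil3, a repressor of clock outputs that is not among the 12, had alternating means. It averaged 8.93 ± 0.38 CPM at ZT2 and 7.85 ± 0.38 CPM at ZT14, against 6.64 ± 0.38 CPM at ZT8 and 7.72 ± 0.52 CPM at ZT20. Its steps were 0.43 ± 0.07 and 0.02 ± 0.07 log2. The glucocorticoid-responsive genes had 0 of 19 members at that p, with 1 alternating, although their steps were -0.16 and 0.20 in the median.

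Sodium, potassium, calcium and sensory channels, neuropeptides and pan-neuronal genes made up 6 lists with 107 measured genes. Of these, 3 were higher at an unadjusted p under 0.05, near the 3.66% of all genes, and 0 were lower, beside 3.78%. The median log2 difference of the 107 was 0.01. Piezo2, the touch channel of low-threshold sensory neurons, had 100.8, 107 and 120.1 CPM at ZT2 and 120.5, 99.3 and 106 CPM at ZT14, against 100.3, 103 and 77.9 CPM at ZT8 and 74.5, 85.0 and 82.0 CPM at ZT20. ZT20 was lowest, and ZT8 overlapped with ZT2 and ZT14. The log2 difference was 0.33 ± 0.08, with an adjusted p of 0.375 in edgeR and 0.0163 in DESeq2. The neurofilament gene Nefm and the RNA-binding protein gene Elavl3 had differences of 0.12 ± 0.05 and 0.07 ± 0.03. Chosen after the values were seen, the pain-related genes Scn9a (0.01 ± 0.06), Trpv1 (0.08 ± 0.06) and Calca (0.05 ± 0.06) gave 95% intervals of -0.11 to 0.14, -0.05 to 0.22 and -0.08 to 0.18.

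Among markers of other cells, satellite glia had 2 of 13 genes higher at an unadjusted p under 0.05, beside 3.66% of all genes, Kcnj10 (0.17 ± 0.06) and Slc1a3 (0.09 ± 0.04), with a median of -0.02 for the list. Fibroblast and connective tissue genes had 2 of 16 higher, Emilin1 and the matrix cross-linking enzyme Loxl1 (0.30 ± 0.07), and a median of 0.20. B and T cell genes also had 2 of 13 higher, among them Ighm, with a median of 0.20 and with 2 members at 0 in some library. The adipocyte list had 0 of 11 at that p, though all 11 were above 0 and the median was 0.22. Skeletal muscle (0 of 18), Schwann cell (0 of 14), macrophage (0 of 15), smooth muscle (0 of 12) and bone and cartilage genes (0 of 12) had none. Over all 40 lists, 99 of 693 measured genes were at that p, 80 higher and 19 lower, beside 7.44% of all tested genes in both directions, 3.66% higher and 3.78% lower.

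**Figure D4:**
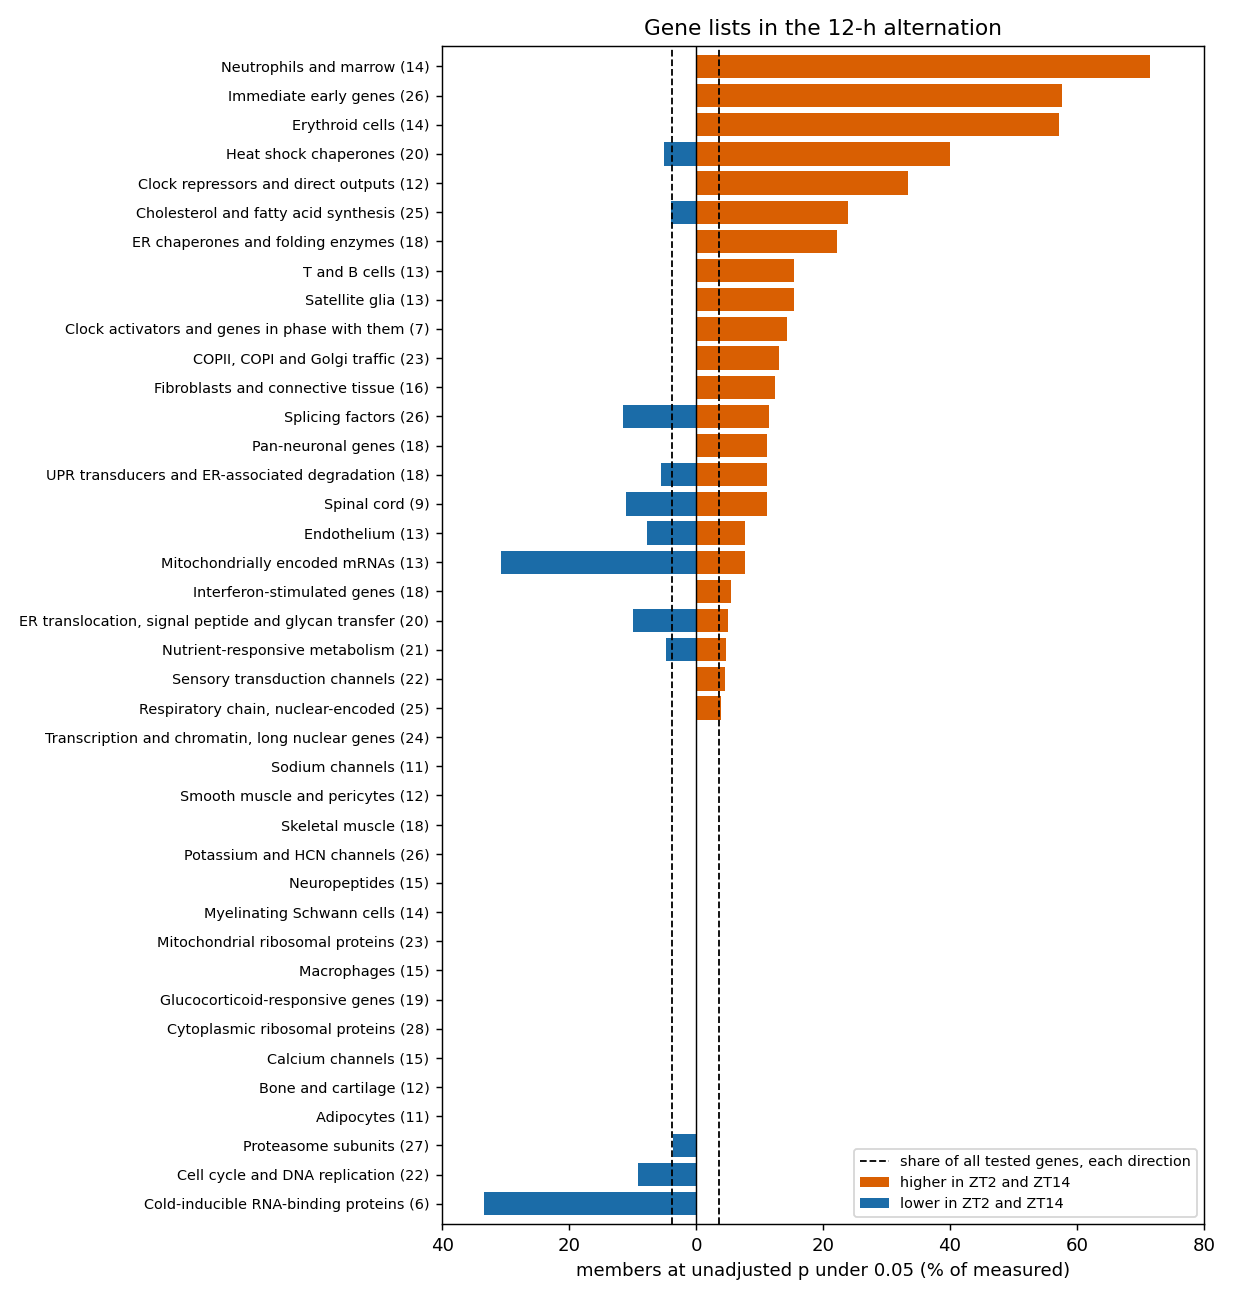
Share of each list's measured members at an unadjusted p under 0.05 in the 12-h contrast (x axis, %), higher in ZT2 and ZT14 to the right and lower to the left, with the number of measured members in brackets. Dashed lines mark the shares of all tested genes, 3.66% and 3.78%. Marrow, immediate early, red cell and heat shock genes reached furthest to the right, and cold-inducible genes, with 6 members, furthest to the left.

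The steps that make up the contrast share no library, and over all genes they showed little common pattern. Both were tested with the same estimate of each gene's spread, so passing in one step is not independent of passing in the other. ZT2 against ZT8 had 744 genes higher (2.88%) and 748 lower (2.9%) at an unadjusted p under 0.05, and ZT14 against ZT20 had 810 higher (3.14%) and 811 lower (3.14%). Past the adjusted threshold were 5 genes (0.0194%) and 11 genes (0.0426%). Genes at that p in both steps numbered 125 with the same sign (65 higher and 60 lower), which is 8.38% of the ZT2 against ZT8 genes and 7.71% of the ZT14 against ZT20 genes, and 90 with opposite signs. Pairing the times the other way, as ZT2 against ZT20 with ZT14 against ZT8, gave 137 genes with the same sign and 100 with opposite signs. Among 16259 genes with at least 1 CPM, 56.2% had the same sign in both steps, and the Pearson correlation across genes was -0.02, genes not being independent replicates.

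**Figure D5:**
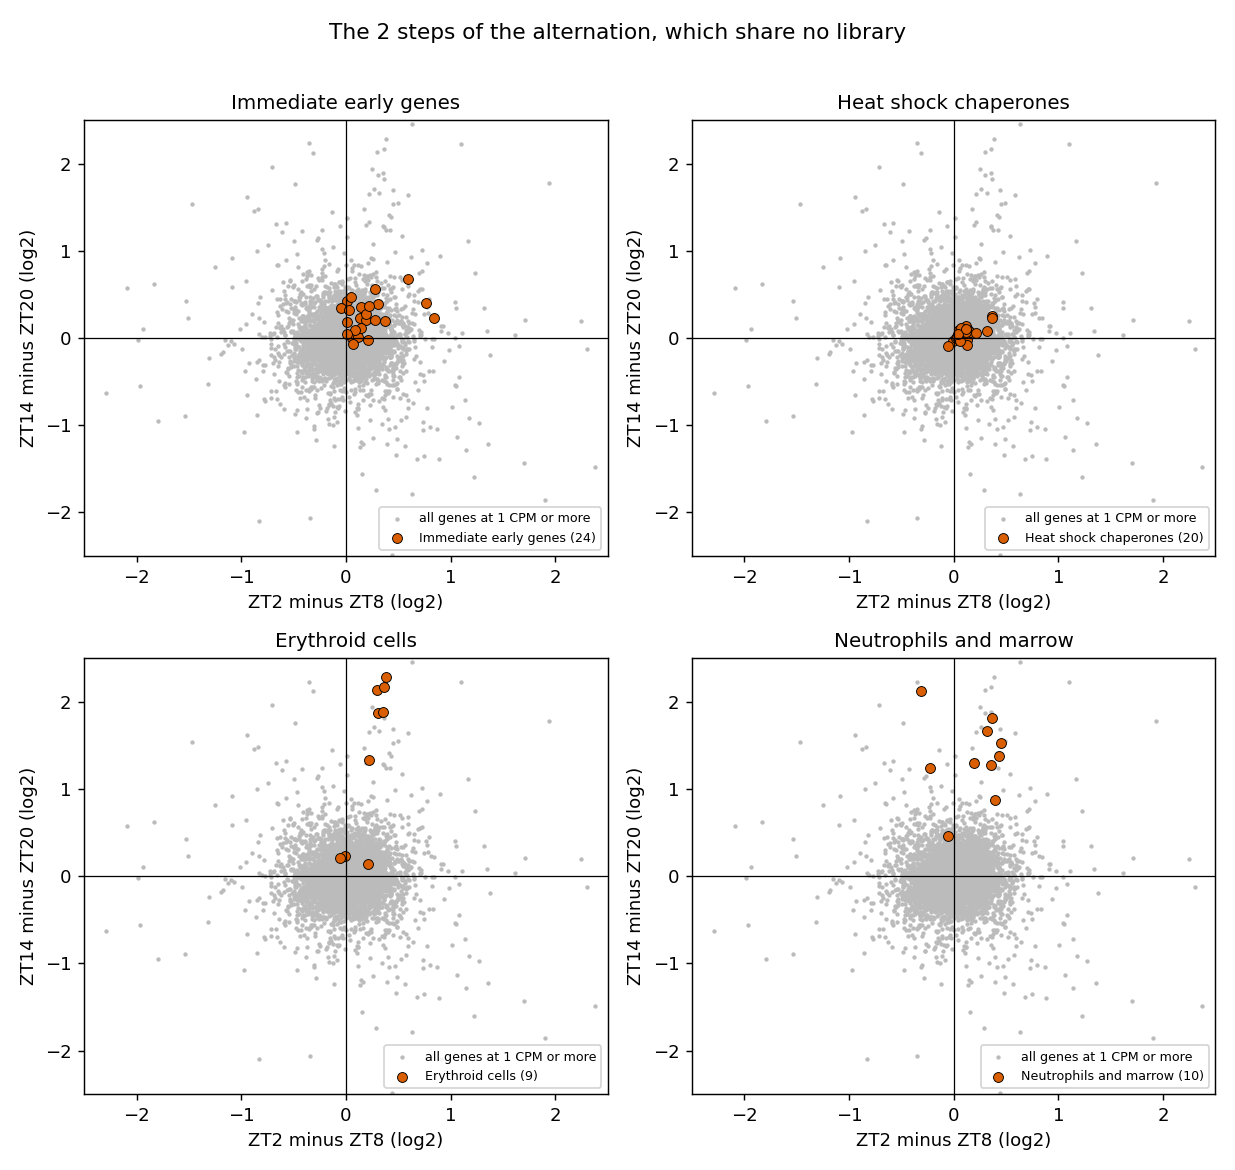
Log2 difference of ZT2 minus ZT8 (x axis) and of ZT14 minus ZT20 (y axis) for each gene with a mean of at least 1 CPM (grey), with the members of 4 lists in orange, and 10 genes outside the axes not drawn. Immediate early and heat shock genes lay mostly where both steps were above 0, while red cell and marrow genes lay high on the y axis and closer to 0 on the x axis.

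The counts also differed with a gene's length. In the fifth of genes with the longest transcripts, 227 were higher and 116 lower at an unadjusted p under 0.05, with a median log2 difference of 0.01, and in the fifth with the shortest transcripts 192 were higher and 227 lower, with a median of -0.02. Its part in the gene results was not tested. With the skeletal muscle score as a covariate, 1899 genes were higher and 1503 lower at that p, and with the marrow score, chosen after seeing the data, 524 and 585, with 0 past the adjusted threshold in each.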

How the data were processed

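Polyadenylated RNA of lumbar DRG was measured in 12 libraries, 3 each at ZT2, ZT14, ZT8 and ZT20. The authors deposited a table of estimated counts, 1 value per gene and library, with decimals. The build GRCm38.p6 and the tools StringTie 2.1.5 and HISAT2 2.2.1 are named, per the submitters' processing notes, without their roles or the strand setting. The scale of the values relative to reads is unknown, so levels were not compared between genes, and depth in reads is not given. Of 38594 Ensembl IDs, 38462 matched GENCODE M21, and 348 assembled loci (0.203% to 0.231% of a library) were left out. Every column of the table belonged to the series.

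Values were rounded and tested with edgeR 4.0.16 in R 4.3.3 (filterByExpr, TMM, robust quasi-likelihood fit of the 4 times to all libraries, Benjamini-Hochberg adjustment over 25809 genes, threshold 0.05). The contrast was the mean of ZT2 and ZT14 minus the mean of ZT8 and ZT20 on the log2 scale. The script was tested on simulated data. Levels are CPM of the TMM-normalized library, mean log2 levels used a prior count of 2, and intervals are 95%. A list was described by its members at an unadjusted p under 0.05 and by its median. Cell type scores are mean log2 CPM of the list. Alternatives were DESeq2 1.42.0, limma 3.58.1, other scalings and filters, approximate reads (value times transcript length, rescaled), a replicate block, covariates, and leaving out libraries.

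Genes named were, per direction, the 12 protein-coding genes with the lowest p among those with a mean of at least 1 CPM and alternating time means, up to 4 list members at an unadjusted p under 0.05, genes passing in an alternative with 15 or fewer calls, and genes known for time differences in these data or for 12-h rhythms in mouse liver. A few genes that these rules name are not reported here. Genes outside these rules are to be read as chosen after their values were seen, also where the text does not say so. The members, lists and rules were chosen with earlier results of these data known. Figures were drawn with matplotlib 3.10.9 and tables made with pandas 2.3.3 (Python 3.11.15).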

Additional observations from a re-analysis of the deposited data

Results flagged for a closer look

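For 8 named genes the steps of the alternation differed by a test of the difference itself, (ZT2 minus ZT8) minus (ZT14 minus ZT20), at an adjusted p under 0.05 in edgeR. On the log2 scale this difference was -3.01 for Dbp, -1.84 for Nr1d1, -1.41 for Per2, -0.96 for Nr1d2, -0.75 for Slco1a4 and -0.56 for Tef, and it was 2.42 for Arntl and 1.92 for Fabp7. Dbp, Nr1d1, Nr1d2, Per2, Tef and Arntl belong to the circadian clock or its outputs, Fabp7 encodes a fatty acid binding protein of glia, and Slco1a4 an anion transporter of barrier endothelium. The test is the same as that of ZT8 and ZT14 against ZT20 and ZT2, but the sign is reversed and the values are larger in size. Negative values therefore mean higher levels at ZT8 and ZT14. Of all 25809 genes, 13 passed it (0.0504%), and a single time standing apart also gives such a difference. Per2 and Tef also had unadjusted p under 0.05 in the 12-h contrast, at log2 differences of 0.42 and 0.08.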

How the results depend on the processing

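In 27 other settings, 2402 of 2478 values of the named genes kept their direction and side of the threshold, 57 newly passed it (41 of them under DESeq2) and 19 reversed. Reversed log2 differences, all of genes not past edgeR's adjusted threshold with all libraries, were, with 2 groups of 6 libraries, Dbp -0.18, Fabp7 0.0613 and Nr1d1 -0.21, and with the red cell score as a covariate, Dbp -0.53, Hba-a2 -0.13, Ighm -0.0353, Ints5 0.0759, Mmp9 -0.14, Ngp -0.0884 and Nr1d1 -0.48. Dbp was -0.002129 with limma, -0.0498 with the muscle covariate, -0.13 without ZT14 replicate 1, -0.07 without ZT2 replicate 2 and -0.008925 without ZT8 replicate 2. Nr1d1 was -0.0392 without ZT14 replicate 1. Over all libraries left out singly, Dbp ranged over -0.13 to 0.12 and Nr1d1 over -0.0392 to 0.15. Without the most muscle-rich library of each time, Arntl was 0.0189, Dbp -0.18 and Nr1d1 -0.0394. The cause was not tested in any of these.

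Counts at an unadjusted p moved with the covariates: with the muscle score to 1899 higher and 1503 lower, and with the marrow score to 524 and 585. Past the adjusted threshold, DESeq2 called 126 and approximate reads 5 (Adamts1, Alas2, Car13, Khk and Emilin1, adjusted p = 0.0436). Immediate early members at that p were 8 with the marrow and 3 with the red cell score. Heat shock members were 4 with the marrow score. ER chaperone members were 7 with the muscle score and without muscle-rich libraries, and 2 with the marrow or red cell score. Sterol members were 2 without muscle-rich libraries or with the marrow score. Red cell members were 0 with their own score, and marrow members were 0 with either score and 5 with 2 groups of 6. Same-sign genes of both steps were 233 without muscle-rich libraries, 518 with the red cell and 367 with the muscle score. Genes whose steps differed were 5 without muscle-rich libraries, 8 with the replicate block, 81 with DESeq2, and 2 with the marrow or red cell score. Without muscle-rich libraries, 601 genes lay fully above and 687 fully below, with fewer libraries to separate. ZT14 and ZT20 against ZT2 and ZT8 gave 2456 with the red cell score. ZT8 and ZT14 against ZT20 and ZT2 gave 843 at a mean of at least 1 CPM, 1990 with the red cell score and 2345 without muscle-rich libraries.

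Leaving out each library gave 802 to 1176 higher, 803 to 1455 lower (highest without ZT14 replicate 1), 0 to 9 past the adjusted threshold, 11 to 15 immediate early, 6 to 12 heat shock (highest without ZT20 replicate 2), 3 to 7 ER chaperone (highest without ZT14 replicate 1), 2 to 5 sterol, 8 to 8 red cell and 9 to 12 marrow members, 9 to 16 genes whose steps differed, 89 to 217 same-sign genes, 70 to 156 genes fully above and 83 to 232 fully below, and 1207 to 2482 and 1178 to 1810 for the other groupings.

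Replicate numbers did not pair the libraries: same-number deviations correlated at -0.06 to 0.08 (0 of 18 pairs over 0.1), and other-number ones at -0.09 to 0.13. With the replicate block, 900 genes were higher and 905 lower, with 0 past the adjusted threshold. Depth in reads is unknown, and 4 times cannot separate a 12-h rhythm from a single time standing apart.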
